A study of Mus musculus with 6 samples.

Results

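A set of 7 genes of thymocyte antigen receptor assembly and early selection were followed through stage 0 invariant natural killer T (iNKT) cells, the first stage after a double-positive thymocyte has been selected on CD1d. They were Rag1, Rag2, Dntt, Ptcra, Arpp21, Rmnd5a and Themis, taken by symbol, and each matched 1 of the 48397 rows of the gene count table. The samples came from BALB/c mice and from SKG mice, which carry a hypomorphic Zap70 allele on the BALB/c background and so have a weaker proximal T cell receptor (TCR) kinase in every cell that uses it. Each genotype had 3 libraries, each made from about 1000 cells out of the thymi of 3 mice, pooled at an age of 8 to 10 weeks. The sorted cells bound the PBS57-loaded CD1d tetramer, carried CD24 and CD69, were low or negative for CD4, and lacked CD44 and CD8. A library is therefore a pool of animals, and no value belongs to 1 mouse. The libraries held 37176544 to 43115544 reads counted on genes, and 10835 to 14791 genes had at least 10 reads in a library. SKG replicate 1 (14791) and BALB/c replicate 3 (14339) had the most such genes, against 10835 to 12287 in the others.

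Rag1 and Rag2 form the recombinase that cuts antigen receptor genes at their recombination signals, and Dntt encodes terminal deoxynucleotidyl transferase (TdT), which adds untemplated bases at the joints. Ptcra encodes the pre-TCR alpha chain, which pairs with a rearranged TCR beta chain in double-negative thymocytes. Transcription of the recombinase genes continues in double-positive thymocytes while the TCR alpha locus is rearranged and is shut off by TCR signalling at positive selection, so these transcripts belong to stages that precede the sorted one.

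Rag1 and Rag2 lie next to each other on chromosome 2 in opposite orientation, whereas Dntt and Ptcra are on chromosomes 19 and 17. The 250 bases before the RefSeq start of these 4 genes are shown because the 4 transcripts varied most between libraries. They are also shown because the E proteins, which bind the E-box, are known regulators of recombinase and pre-TCR transcription. The sequences are from RefSeq on GRCm38.p6, each printed on its gene's own strand, and capitals mark every match to CANNTG, a motif that reads the same on both strands.
Rag1: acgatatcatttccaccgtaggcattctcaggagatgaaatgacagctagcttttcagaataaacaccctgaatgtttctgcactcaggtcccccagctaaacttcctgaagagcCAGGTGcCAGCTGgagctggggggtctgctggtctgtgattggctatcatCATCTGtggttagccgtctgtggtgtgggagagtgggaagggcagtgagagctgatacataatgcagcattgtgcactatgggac
Rag2: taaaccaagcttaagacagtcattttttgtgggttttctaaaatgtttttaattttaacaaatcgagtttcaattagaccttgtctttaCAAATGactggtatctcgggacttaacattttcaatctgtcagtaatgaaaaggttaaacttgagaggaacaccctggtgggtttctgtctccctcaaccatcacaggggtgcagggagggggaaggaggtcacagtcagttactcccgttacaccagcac
Dntt: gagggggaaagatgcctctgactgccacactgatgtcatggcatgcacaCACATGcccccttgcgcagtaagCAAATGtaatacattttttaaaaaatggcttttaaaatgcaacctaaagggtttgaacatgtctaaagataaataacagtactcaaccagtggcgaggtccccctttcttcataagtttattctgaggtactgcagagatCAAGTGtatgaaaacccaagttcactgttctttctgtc
Ptcra: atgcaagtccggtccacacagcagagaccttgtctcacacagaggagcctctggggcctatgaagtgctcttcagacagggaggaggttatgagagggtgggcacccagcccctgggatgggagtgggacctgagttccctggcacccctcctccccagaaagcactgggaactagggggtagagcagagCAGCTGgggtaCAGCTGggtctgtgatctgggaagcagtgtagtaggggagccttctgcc
The Rag1 window, chr2:101649533-101649782 on the minus strand, held 3 E-boxes. The Rag2 window, chr2:101624462-101624711 on the plus strand, held 1. The Dntt window, chr19:41029025-41029274 on the plus strand, held 3, and the Ptcra window, chr17:46763713-46763962 on the minus strand, held 2, both with the letters CAGCTG. Among 32851 windows of the same length, 66.2% held at least 1 E-box, 31.8% at least 2 and 12.2% at least 3, so the motif alone does not set these genes apart. The Rag1 window also held 2 matches to TGTGGT, a core read by Runx factors and searched on both strands. The TGTGGT match occurred in 14.0% of all windows, and 1 of the 2 in Rag1 overlapped an E-box.

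Rag1, the recombinase subunit that holds the catalytic site, was counted at 1438, 83 and 4 reads in replicates 1, 2 and 3 of BALB/c, against 0, 379 and 34 reads in those of SKG. In counts per 1000000 reads (CPM, scaled by the trimmed mean of M values), these were 34.9, 2.24 and 0.0886 in BALB/c, against 0, 9.75 and 0.940 in SKG. Rag1 was thus high in 1 library of each genotype and near or at 0 in another of each, and the genotypes overlapped. The mean was 12.4 ± 19.5 CPM in BALB/c and 3.56 ± 5.38 CPM in SKG (SD, n = 3 each), with an SD above the mean in both. The log2 fold change of SKG over BALB/c was -1.80 (SE 2.46, 95% confidence interval -7.70 to 4.10), with an adjusted p of 0.991 in the edgeR quasi-likelihood test. The library without a Rag1 read, SKG replicate 1, held 40276328 reads, and 3 reads in it, the limit that a count of 0 allows, correspond to 0.0745 CPM. Such limits cover counting error only, since reads of amplified cDNA are not independent molecules.

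Rag2, the second recombinase subunit, which binds histone H3 methylated at lysine 4, was counted at 1044, 2 and 2 reads in BALB/c, against 0, 3 and 398 in SKG. Only BALB/c replicate 1 (25.3 CPM) and replicate 3 of SKG (11.0 CPM) rose above the level of 3 reads. The recombinase subunits did not follow each other in every library. SKG replicate 2 had 379 reads of Rag1 beside 3 of Rag2, and SKG replicate 3 had 34 of Rag1 beside 398 of Rag2, although only a complex of both subunits cuts DNA. Rag2 averaged 8.47 ± 14.6 CPM in BALB/c and 3.69 ± 6.33 CPM in SKG (SD, n = 3 each). With at least 10 reads in only 2 of the 6 libraries, it did not pass the filter on low counts. Fitted without that filter its log2 fold change was -1.20 (SE 2.47, 95% confidence interval -6.65 to 4.24, adjusted p = 0.885 in edgeR).

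GENCODE places the Rag1 and Rag2 transcripts at chr2:101638282-101649501 on the minus strand and chr2:101624718-101632529 on the plus strand (GRCm38). The RefSeq starts used for the sequence windows were slightly different, at 101649532 for Rag1 and 101624712 for Rag2. A longer gene on the minus strand, B230118H07Rik, starts in GENCODE at the same base as Rag1 in RefSeq. It shares 80 exonic bases with Rag1 (1.21% of the Rag1 exon length) and 208 with Rag2 (6.07% of that of Rag2). B230118H07Rik itself had 0 reads in each BALB/c library, against 0, 29 and 15 in SKG, so its own counts were small beside the high Rag values. The methods describe an unstranded alignment and do not state the strand setting of the counting, and reads from the shared bases cannot be assigned to 1 gene. The flanking gene Traf6, a signalling adaptor of the TNF receptor and Toll-like receptor pathways, had 2256 to 6348 reads in every library, with a log2 fold change of 0.80 (adjusted p = 0.951 in edgeR). Another gene of the region, Prr5l, had 461, 0 and 83 reads in BALB/c, against 0, 17 and 0 in SKG.

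Dntt, at chr19:41029275-41059525 on the plus strand, was present in all 6 libraries. It had 3595, 759 and 146 reads in BALB/c, against 266, 1615 and 1135 in SKG. Its highest and its lowest library were both BALB/c, and the SKG range fell inside the BALB/c range. The means were 37.0 ± 44.3 CPM in BALB/c and 26.5 ± 18.0 CPM in SKG (SD, n = 3 each), and the log2 fold change was -0.48 (SE 1.17, 95% confidence interval -3.28 to 2.32, adjusted p = 0.991 in edgeR).

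Ptcra, at chr17:46755663-46763712 on the minus strand, was found in 2 libraries only, with 227 reads in BALB/c replicate 1, then 152 in SKG replicate 2, and had 0 reads in the other 4. These were also the libraries with the most Rag1 and Dntt in their genotypes. The Ptcra means were 1.83 ± 3.18 CPM in BALB/c and 1.30 ± 2.26 CPM in SKG (SD, n = 3 each). It did not pass the filter on low counts, and without the filter its log2 fold change was -0.47 (SE 2.92, 95% confidence interval -6.90 to 5.96, adjusted p = 0.977 in edgeR). In pooled cells, fewer cells carrying a transcript and less of it per cell cannot be told apart, here or for any gene described.

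**Figure D1:**
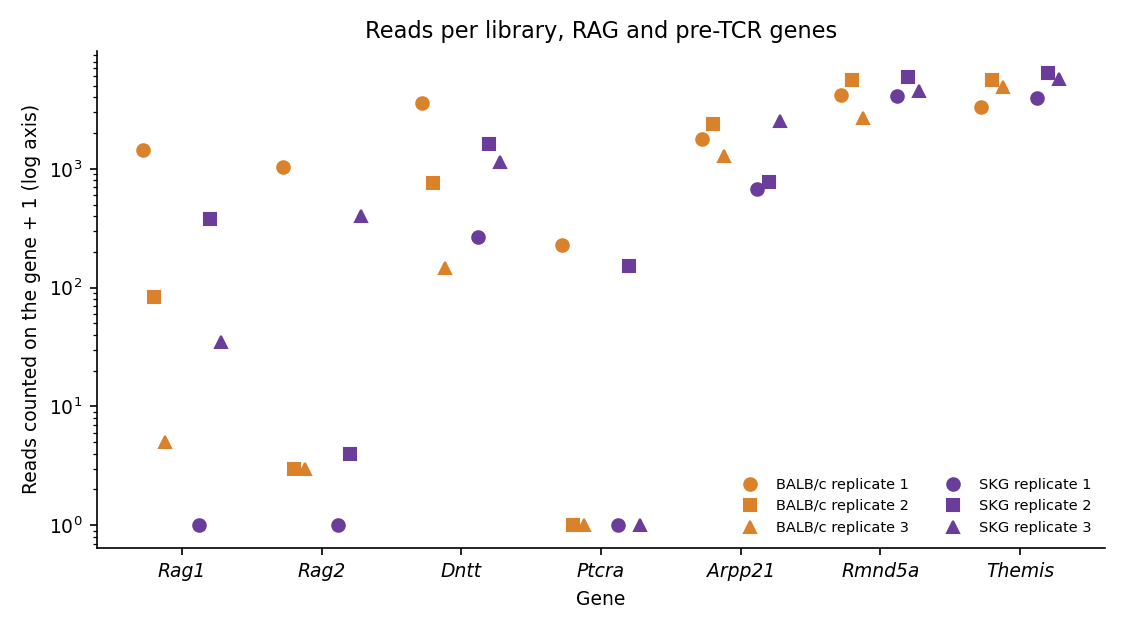
Reads counted on each of the 7 genes in each library, with 1 added so that a count of 0 can be drawn on the log axis; orange marks BALB/c, purple marks SKG, and the symbol gives the replicate. Rag1 runs from 0 to 1438 reads and Rag2 from 0 to 1044, whereas Themis stays between 3331 and 6364.

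Arpp21, Rmnd5a and Themis, which are abundant in double-positive thymocytes, were detected in every library. Arpp21 encodes an RNA-binding phosphoprotein known from striatal neurons and immature thymocytes, and lies at chr9:112065091-112235938 on the minus strand. It had 1789, 2371 and 1279 reads in BALB/c, against 673, 779 and 2540 in SKG, so that SKG replicate 3 held the most and the other SKG libraries the least. The log2 fold change of Arpp21 was -0.34 (SE 0.66, 95% confidence interval -1.92 to 1.24, adjusted p = 0.991 in edgeR), with means of 45.2 ± 17.9 CPM in BALB/c and 35.7 ± 30.0 CPM in SKG (SD, n = 3 each). An Arpp21 intron on chromosome 9 carries the precursor of miR-128-3p, whose mature sequence at chr9:112118644-112118664 (RefSeq, GRCm38.p6, minus strand) is shown with its seed, bases 2 to 8, in capitals, because the host gene is among those described.
miR-128-3p: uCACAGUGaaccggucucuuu
The row of the precursor gene, Mir128-2, was at 0 reads in all 6 libraries. Per the methods, the libraries were made from polyA+ RNA, so this count does not tell whether the microRNA was present.

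Rmnd5a encodes a RING subunit of the CTLH ubiquitin ligase complex and lies at chr6:71388634-71440637 on the minus strand. It had 4188, 5611 and 2653 reads in BALB/c, against 4095, 5917 and 4533 in SKG, with BALB/c replicate 3 lowest and an overlap between the genotypes. Its means were 104 ± 46.3 CPM in BALB/c and 126 ± 25.3 CPM in SKG (SD, n = 3 each), and its log2 fold change was 0.28 (SE 0.37, 95% confidence interval -0.59 to 1.16, adjusted p = 0.991 in edgeR).

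Themis encodes a Grb2-bound adaptor needed for positive selection of thymocytes and lies at chr10:28668360-28883818 on the plus strand. It had 3331, 5607 and 4896 reads in BALB/c, against 3913, 6364 and 5739 in SKG. The values overlapped between the genotypes, and BALB/c replicate 1, highest for the recombinase genes, was lowest for Themis. The means were 113 ± 35.5 CPM in BALB/c and 140 ± 37.1 CPM in SKG (SD, n = 3 each), and the log2 fold change was 0.30 (SE 0.31, 95% confidence interval -0.45 to 1.06, adjusted p = 0.991 in edgeR). Of the 7 genes, Themis had the narrowest confidence interval. Themis shares 1.31% of its exon bases, and Arpp21 3.33%, with another annotated gene, whereas Dntt, Ptcra and Rmnd5a share none.

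The comparison of SKG with BALB/c asked whether a weaker Zap70 altered these transcripts at the first iNKT stage. None of the 5 genes that passed the filter was called at an adjusted p under 0.1 with at least a 1.5-fold change, and among all 12312 genes tested edgeR called 0 (0%). At an unadjusted p under 0.05 edgeR listed 671 genes (5.45%), none of them among the 5. DESeq2, run on the same counts, called 370 genes, none of them among the 7, gave no p for Rag2 and Ptcra, and limma-voom called 0. For 1710 tested genes (13.9%) the libraries of BALB/c and SKG fell into separate ranges. The genotypes overlapped for all 7 genes described here, of which Rag2 and Ptcra were not among the tested genes. With only 7 genes, their overlap cannot be told apart from that share. The intervals of Rag1 and Dntt spanned more than a 4-fold change in either direction, so that a difference of that size was not detectable for them with 3 libraries per genotype.

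The sign of the difference turned for 4 of the genes when a single library was left out. Without BALB/c replicate 1, the log2 fold change of SKG over BALB/c became 1.63 for Rag1 and 1.17 for Dntt in edgeR, and 6.12 for Rag2 and 8.69 for Ptcra in the fit without a filter, with an adjusted p of 0.830 for each of the latter. The last 2 values depend on how counts near 0 are treated and are not bounds. For Ptcra the sign also turned without SKG replicate 1 (0.11) or replicate 3 (0.10). Arpp21, Rmnd5a and Themis kept their signs when any 1 library was left out, but their sizes moved. Arpp21 was at -0.01 with SKG replicate 1 omitted and at -1.29 when SKG replicate 3 was (95% confidence interval -2.54 to -0.03, adjusted p = 0.831 in edgeR), with -0.02 without BALB/c replicate 2, -0.05 without SKG replicate 2 and -0.59 without BALB/c replicate 3. Rmnd5a ran from 0.0068 without BALB/c replicate 3 to 0.65 without BALB/c replicate 2, with 0.14 without SKG replicate 2. Themis ran from 0.11 without BALB/c replicate 1 to 0.55 without BALB/c replicate 2, with 0.18 without SKG replicate 2 and 0.50 without SKG replicate 1.

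**Figure D2:**
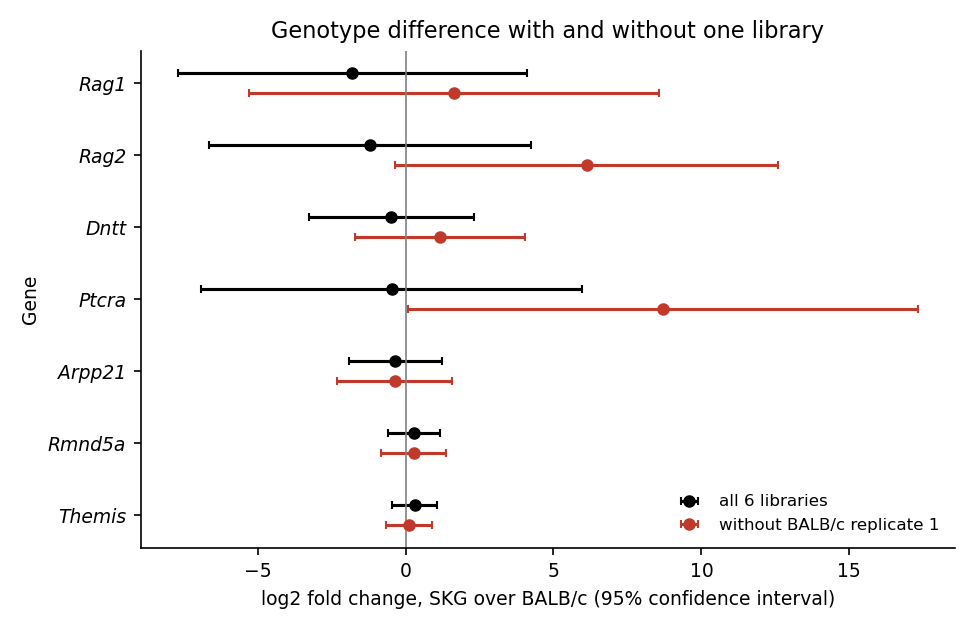
Log2 fold change of SKG over BALB/c for each gene with its 95% confidence interval from edgeR, fitted on all 6 libraries (black) and without BALB/c replicate 1 (red); Rag2 and Ptcra were fitted without a filter on low counts. Rag1 moves from -1.80 to 1.63 and Dntt from -0.48 to 1.17, and Rmnd5a is at 0.28 and 0.27.

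The 7 genes fell along a wide range of variability. The gap between the highest and the lowest library, on a log2 CPM scale with a prior count of 2, was 9.44 for Rag1, 8.98 for Rag2, 6.79 for Ptcra and 4.73 for Dntt. A larger gap was seen in 0.333% of the tested genes for Rag1, in 1.24% for Rag2, in 15.7% for Ptcra and in 25.9% for Dntt. Rag2 and Ptcra did not pass the filter on low counts, and the genes left out by it are not in these shares. The gap was 2.07 for Arpp21, 1.37 for Rmnd5a and 1.02 for Themis, and 44.6%, 61.7% and 75.5% of the tested genes had a larger one. Set against the tested genes, the recombinase subunits were therefore among the most uneven transcripts, and the adaptor Themis among the steadier ones. The libraries with the most genes at 10 reads or more, SKG replicate 1 and BALB/c replicate 3, were also the lowest in Rag1 and Dntt. Whether the spread of these genes follows the number of genes detected was not tested.

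**Figure D3:**
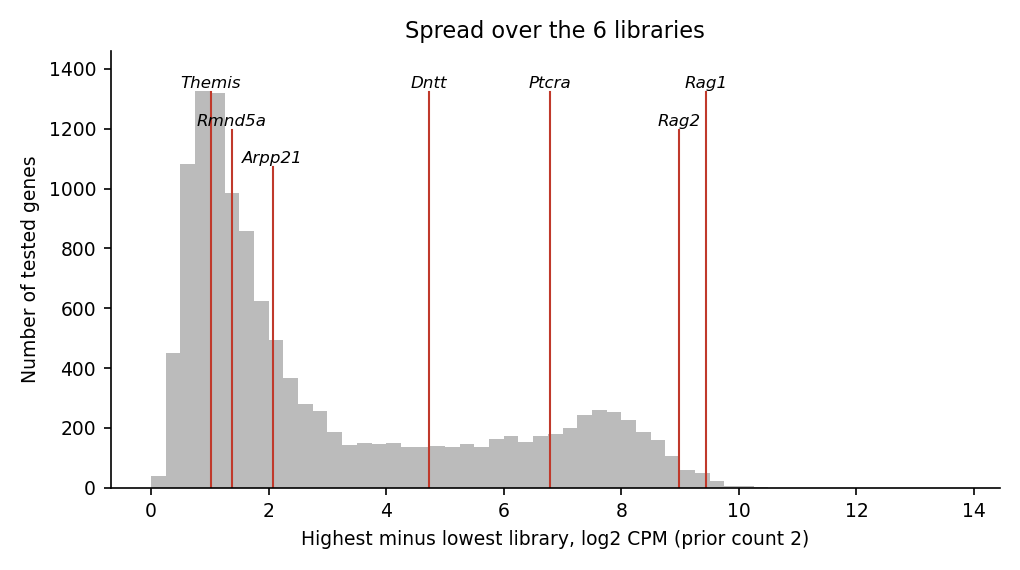
Histogram over the 12312 tested genes of the gap between the highest and the lowest of the 6 libraries, in log2 CPM, with the 7 genes marked. Rag1 at 9.44 and Rag2 at 8.98 lie in the right tail, and Themis at 1.02 lies in the bulk of genes. Rag2 and Ptcra did not pass the filter on low counts and are not in the histogram.

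Between genes, levels were compared as CPM per kilobase of merged exon length. Averaged over the 6 libraries, Rmnd5a stood at 17.0 ± 5.25, Dntt at 13.8 ± 13.4 and Themis at 10.8 ± 3.04 CPM per kb (SD, n = 6). Arpp21 at 2.32 ± 1.30, Rag2 at 1.78 ± 3.03, Ptcra at 1.22 ± 1.93 and Rag1 at 1.21 ± 2.07 CPM per kb followed. Neighbours in this order lay within 1 SD of each other, except for the step from Themis to Arpp21. The place of Themis and the level of Arpp21 depended on the length used, because the merged exons of all transcripts are longer than any single transcript. With the longest transcript, Themis came to 24.9 CPM per kb, above Rmnd5a at 18.7 and Dntt at 14.9, and Arpp21 came to 7.60.

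Across the 6 libraries, 18 of the 21 pairs among the 7 genes correlated positively, with Pearson's r from -0.20 to 0.92 on log2 CPM. No pair passed Benjamini-Hochberg adjustment over the 21 (lowest adjusted p = 0.321, exact permutation over 720 pairings). Rag1 and Dntt had the highest r, 0.917 (exact permutation p = 0.0153, adjusted p = 0.321), with a Spearman's rho of 0.886, and r was 0.890 without the 2 libraries farthest from the median of Rag1. Rag1 and Rag2 gave r = 0.578 (exact permutation p = 0.197) and rho = 0.829 (exact permutation p = 0.0583). With SKG replicate 1 and BALB/c replicate 1 left out, the lowest and the highest in Rag1, r between Rag1 and Rag2 was -0.0595, so that this relation rested on those libraries.

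The genes whose pattern over the 6 libraries was most like each of the 4 uneven genes were taken from the 12307 other tested genes. For Rag1 these were Brd1, a bromodomain protein, at r = 0.984, Psmd9 at 0.976 and Nr4a1, an immediate early nuclear receptor, at 0.958. Kti12 (0.991), Myo18a (0.977) and Tmem39a (0.967) were nearest to Dntt. For Rag2 they were Rn7sk (0.993), Mgat5 (0.988) and Xiap (0.982), and for Ptcra they were Magee1 (0.985), Ints10 (0.979) and Brwd3 (0.979). Of those 12307 genes, 42 exceeded 0.9 for Rag1, 147 for Rag2, 25 for Dntt and 61 for Ptcra. The named genes are the top of this many comparisons over 6 libraries, and their r values were not tested.

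Genes of the double-positive stage were present in all libraries, although the gate excluded CD8 protein. The CD8 chain genes Cd8a, at 4985, 1412 and 922 reads in BALB/c, against 1332, 1190 and 2396 in SKG, and Cd8b1, at 4958, 1045 and 651 in BALB/c, against 592, 1148 and 1496 in SKG, were highest in BALB/c replicate 1. That library also had the most Rag1, Rag2, Dntt and Ptcra, whose levels added up to 153 CPM in it, against 22.8 and 3.37 CPM in the rest of BALB/c, whereas the SKG sums were 6.60, 55.3 and 43.3 CPM. Cd4 transcripts, at 218 to 1302 reads, and Endou, at 52 to 912 reads, were also seen in each library. The summed double-positive list of 13 genes ran from 2766 to 3220 CPM in BALB/c and from 3333 to 4262 CPM in SKG, and most of it was Slamf6. The part of residual double-positive cells in the Rag1, Rag2, Dntt and Ptcra values was not tested.

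**Figure D4:**
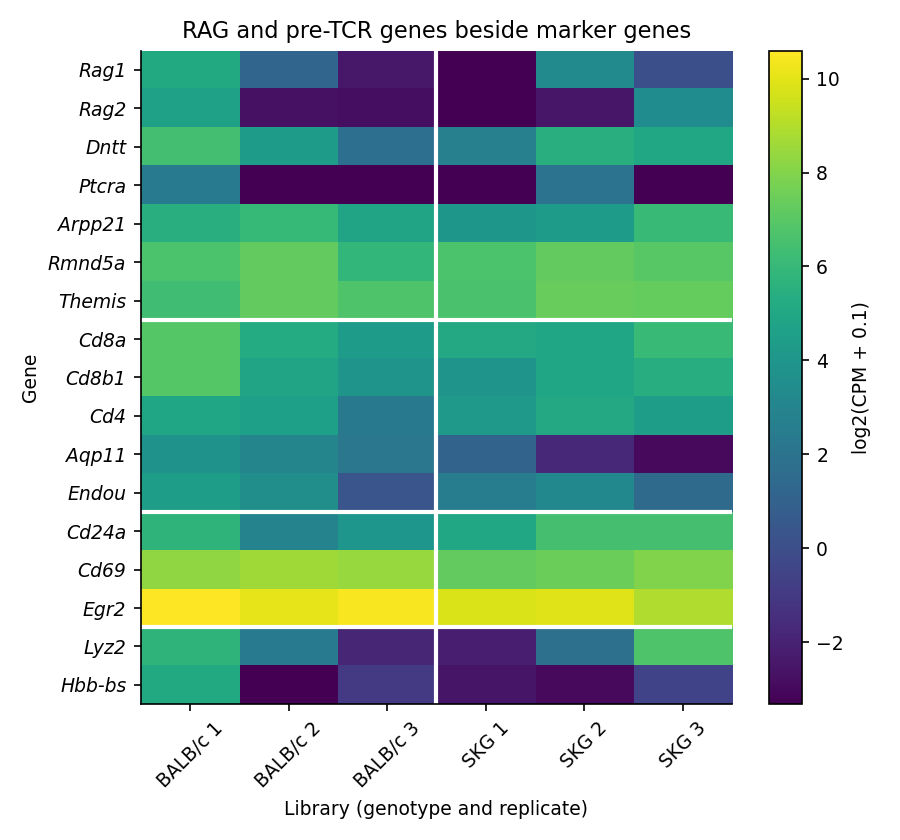
Level of the 7 genes, as log2(CPM + 0.1), in each library beside genes of the double-positive stage (Cd8a, Cd8b1, Cd4, Aqp11, Endou), genes of the sort stage (Cd24a, Cd69, Egr2) and markers of myeloid and red cells (Lyz2, Hbb-bs). BALB/c replicate 1 is bright for Rag1, Rag2, Dntt, Ptcra, Cd8a and Cd8b1 together.

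Markers of other cell types also moved between libraries. The summed level of the 6 erythroid genes was 69.7 CPM in BALB/c replicate 1 and at most 0.691 CPM in any SKG library, and its gene Hbb-bs had 1428, 0 and 19 reads in BALB/c, against 3, 1 and 22 in SKG. The 7 myeloid genes summed to 3.41 to 64.8 CPM in BALB/c and 5.91 to 135 CPM in SKG. Lyz2, the macrophage lysozyme, was high in the libraries with the most Rag2, at 2215 reads in BALB/c replicate 1 and, for replicate 3 of SKG, 3873, against 5 to 188 in the others. Cd68 was also highest in these, with 456 and 1018 reads in those libraries and 121 to 222 elsewhere, whereas the other 5 myeloid genes (Itgam, Csf1r, Adgre1, S100a8 and S100a9) had 0 reads in both and at most 8 in any library. The 8 B cell genes summed to 1.89 to 11.2 CPM in BALB/c and 3.14 to 21.4 CPM in SKG, and the 6 thymic epithelial genes to 28.5 to 57.2 and 14.5 to 99.4 CPM. The 7 plasmacytoid dendritic cell genes summed to 58.3 to 120 CPM in BALB/c, against 80.9 to 125 CPM in SKG, and most of each sum was Ccr9, which is also in the double-positive list, at 31.4 to 93.7 CPM. Of the defining genes of these dendritic cells, Cox6a2 was at 0 in all libraries, and Siglech and Spib had at most 12 reads in 5 libraries but 270 and 673 in SKG replicate 3. What part cells of these types have in the values of Rag1, Rag2, Dntt and Ptcra was not tested.

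Of 8 genes of the sort or of stage 0, Egr2 and Zbtb16 were not part of the gate, and Cd69 was the activation marker used in it. Cd69 was at 312, 391 and 354 CPM in BALB/c, against 152, 179 and 250 CPM in SKG. Its log2 fold change was -0.87 (SE 0.22, adjusted p = 0.686 in edgeR). Egr2, the TCR-induced factor needed for iNKT development, had a log2 fold change of -0.80 (adjusted p = 0.834 in edgeR). The genotypes did not overlap for these 2 of the 8 genes, against a share of 13.9% over all tested genes. Neither Cd69 nor Egr2 passed the adjusted threshold. Zbtb16, the PLZF factor of the iNKT lineage, had 3358 to 6882 reads in every library (log2 fold change -0.34, adjusted p = 0.991 in edgeR), and Cd44, which the gate excluded, had 4 to 536. Cd24a was uneven in both genotypes, at 2161, 271 and 703 reads in BALB/c, against 1284, 3443 and 3281 in SKG. Zap70 itself was at 374 to 498 CPM in BALB/c and 322 to 409 CPM in SKG, with an overlap between the genotypes. Its log2 fold change was -0.33 (adjusted p = 0.953 in edgeR). Since the SKG allele changes the protein, the Zap70 level does not check the genotype.

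Genes that act with the 7 in the same processes were then counted. Of 78 genes in 8 lists, 68 were tested and edgeR called 0. Without shrinkage, DESeq2 called 5 of the listed genes (Dtx1, Notch3, Plcg1, Satb1 and Xrcc5), of which Dtx1 and Notch3 were not among the 68. With shrinkage it called 2 (Satb1 and Xrcc5). At an unadjusted p under 0.05 edgeR listed 9 (13.2% of the 68, against 5.45% of all tested genes), and 14 did not overlap between the genotypes (20.6%, against 13.9%). The lists were chosen with earlier results of these data known, and these shares are a description.

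V(D)J end joining seals the breaks made by the recombinase. Among its 13 tested genes the median log2 fold change was -0.14, against -0.02 over all tested genes. Against a share of 13.9% over all tested genes, 1 of the 13 did not overlap between the genotypes. This was Xrcc5, which encodes the Ku80 end-binding subunit, at 4363, 3470 and 3830 reads in BALB/c, against 2138, 1871 and 1412 in SKG (log2 fold change -1.02, SE 0.25, adjusted p = 0.671 in edgeR). All SKG libraries were below all BALB/c libraries. The 7 pre-TCR partner genes, which include the CD3 chains and Lck, had a median of 0.08, and every one of them overlapped between the genotypes.

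Of 11 known regulators of the Rag and Ptcra genes, for 3 the lowest SKG library lay above the highest BALB/c library. The same held for 833 of all 12312 tested genes, and the median of the list was 0.45. Satb1, a chromatin organiser that acts on the Rag locus in thymocytes, had 9792, 13232 and 10592 reads in BALB/c, against 36539, 23270 and 41697 in SKG (log2 fold change 1.68, SE 0.29, adjusted p = 0.617 in edgeR). Tcf3, which encodes the E proteins E12 and E47, differed by 0.56 on the log2 scale (SE 0.14, adjusted p = 0.686 in edgeR), and Ikzf1, which encodes Ikaros, by 0.45 (SE 0.22, adjusted p = 0.952 in edgeR). Rag1 and Rag2 were not ordered by genotype as these regulators were.

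**Figure D5:**
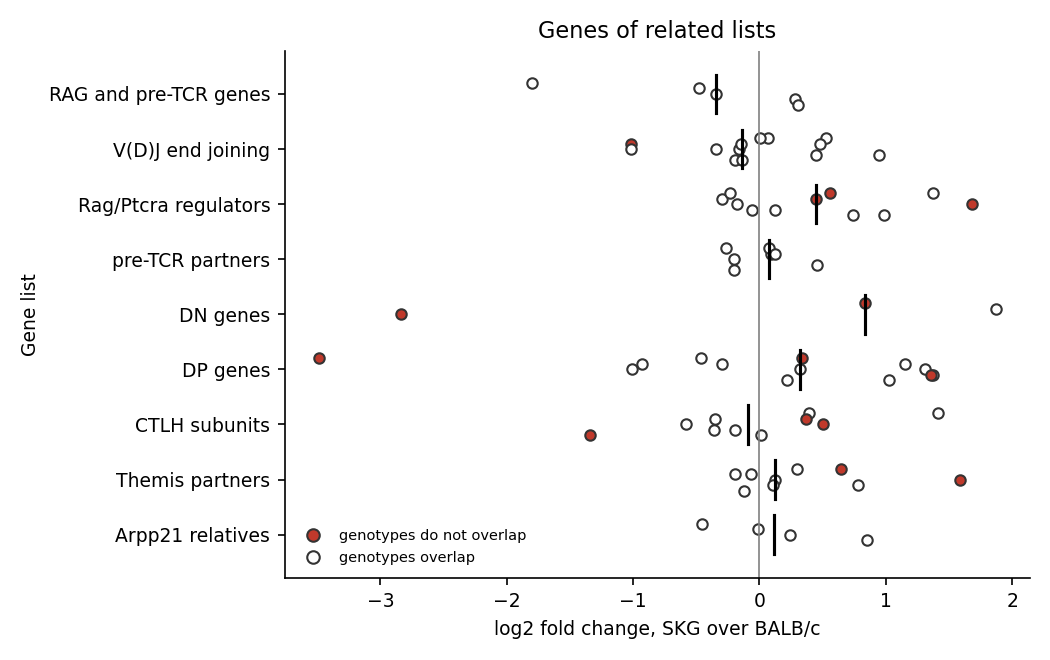
Log2 fold change of SKG over BALB/c from edgeR for each tested gene of the 7 described and of the 8 related lists, with the median of each list marked. The regulators of the Rag and Ptcra genes have a median of 0.45 and the end-joining genes one of -0.14, against -0.02 over all tested genes.

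Of 10 genes of the double-negative programme, in which Ptcra is first used, only 3 passed the filter. Dtx1 and Notch3, which DESeq2 called without shrinkage, did not pass it. Dtx1 had 0 reads in each BALB/c library, against 238, 583 and 0 in SKG. Notch3 had 6, 0 and 1 reads in BALB/c, against 8, 33 and 675 in SKG. Notch1, the receptor that drives T lineage entry, was at 0.84 (SE 0.34, adjusted p = 0.895 in edgeR) and Hhex at -2.84 (SE 1.95, adjusted p = 0.988 in edgeR), both without overlap between the genotypes. Such separation was seen in 13.9% of all tested genes. Among the 13 genes of the double-positive programme the median was 0.32. Cd1d1, which presents the selecting lipids to iNKT precursors, was at 1.36 (SE 0.46, adjusted p = 0.834 in edgeR), Slamf6, a SLAM family receptor that takes part in iNKT selection, at 0.34 (SE 0.13, adjusted p = 0.869 in edgeR), and the aquaporin gene Aqp11 at -3.49 (SE 1.64, adjusted p = 0.952 in edgeR). Aqp11 had 558, 290 and 203 reads in BALB/c, against 83, 8 and 1 in SKG, a different order of libraries from that of Rag1.

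Partners of the steadier genes were also examined. Of 10 genes of the CTLH complex, which contains Rmnd5a, the scaffold gene Wdr26 was at 0.50 (SE 0.16, adjusted p = 0.830 in edgeR), the RING partner Maea at 0.37 (SE 0.17, adjusted p = 0.952 in edgeR) and Gid8 at -1.34 (SE 0.86, adjusted p = 0.982 in edgeR), each without overlap between the genotypes. Of 9 tested partners of Themis, the phosphatase gene Ptpn11 was at 1.59 (SE 0.52, adjusted p = 0.833 in edgeR) and the phospholipase gene Plcg1 at 0.64 (SE 0.16, adjusted p = 0.686 in edgeR), higher in all SKG libraries. The 4 tested relatives of Arpp21 had a median of 0.11 with 0 genes free of overlap, and the medians of the CTLH and Themis lists were -0.09 and 0.13. Of all tested genes, 13.9% were free of overlap between the genotypes.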

How the data were processed

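Bulk RNA-seq of 6 sorted pools, 3 per genotype, was used. The deposited table holds raw read counts per gene, which the authors made, per the labels, from 50-nt single-end reads with HISAT2 2.1.0 on GRCm38 and featureCounts from Subread 1.4.4, and, per the methods, with Ensembl 85 genes and a mapping quality of at least 10. The labels name a kit with 18 preamplification cycles and the methods another with 8, and reads carry no molecular identifiers. The authors' comparison table (DESeq2 means, fold changes, p-values) was not used. Titles spell the SKG libraries SGK, and replicates follow the titles.

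Counts were filtered by filterByExpr (12312 genes), scaled by TMM and tested with the edgeR 4.0.16 quasi-likelihood test in R 4.3.3, Benjamini-Hochberg adjusted over all genes tested. Calls needed an adjusted p under 0.1 and a 1.5-fold change. Alternatives were DESeq2 1.42.0, limma-voom (limma 3.58.1), other scalings and filters, replicate blocks and leaving out each library, and the scripts were tested on simulated data. Exon lengths came from GENCODE. The 7 genes and all lists were chosen with earlier results of these data known, and Paxx was not found under that symbol. Named in the text were the 7 genes, genes near Rag1 and Rag2, and genes of the sort or of stage 0. The 3 genes most like each uneven gene were also named. From each list, the 3 with the largest change among those without overlap between genotypes were named. Those DESeq2 called were added after their values were seen. Residuals of libraries with the same title number correlated at -0.092, -0.010 and -0.145, so the numbers were not taken as pairs. The labels call the samples of a genotype independent.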

Additional observations from a re-analysis of the deposited data

How the results depend on the processing

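None of the 7 genes was called under any alternative run. Of 108 alternative fold changes of these genes, 98 kept their direction and 10 reversed. The reversals fell on Rag1, Rag2, Dntt and Ptcra. With the title number as a replicate block the log2 fold change was 1.03 for Rag1, 0.46 for Rag2 and 0.54 for Dntt, and limma-voom gave 0.26 for Dntt. Leaving out 1 library at a time moved Rag1 from -4.71 to 1.63, Rag2 from -7.66 to 6.12, Dntt from -1.02 to 1.17 and Ptcra from -9.19 to 8.69, and Ptcra was at 0.11 with SKG replicate 1 left out and 0.10 with SKG replicate 3 left out, while Arpp21 ran from -1.29 to -0.01, Rmnd5a from 0.0068 to 0.65 and Themis from 0.11 to 0.55. Where the omitted library was the one that held the Rag2 or Ptcra reads of its genotype, the value depends on the prior count. Across all genes, DESeq2 called 370 without shrinkage and 231 with shrunken fold changes, and edgeR without a filter called 2, against 0. Of the related genes, DESeq2 called 5 (Dtx1, Notch3, Plcg1, Satb1 and Xrcc5) without shrinkage and 2 (Satb1 and Xrcc5) with it. Dtx1 and Notch3 did not pass the filter used for edgeR. The cause of the difference between the tools was not tested. The level per length moved to 24.9 CPM per kb for Themis and 7.60 for Arpp21 with the longest transcript. The correlation of Rag1 and Rag2 was between 0.576 and 0.638 under other scalings, another prior count and centring by genotype, but -0.0595 without BALB/c replicate 1 and SKG replicate 1. The intervals of Rag1 and Dntt were wide although each library held at least 37176544 reads, and Rag2 and Ptcra were within the limit of 3 reads in 4 of the 6 libraries.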
